A study of Homo sapiens with 16 samples.

Results

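The mRNAs described here are 10 transcripts that are known as short-lived and, for most of them, as products of immediate early genes: MYC, JUN, JUNB, FOSL1, EGR1, IER2, IER3, ATF3, KLF6 and ZFP36L1. They were chosen by name, with earlier results of these data known, as 10 of the 60107 genes listed for each library. Their Ensembl identifiers were matched to symbols with GENCODE release 44. Cytoplasmic RNA came from U2OS-TR, human osteosarcoma cells that make the tetracycline repressor, and the sequence tags next to the poly(A) tail were counted. In U2OS-TR/ΔN-RNMT, a derivative that is 1 selected clone, doxycycline releases a CMV promoter that drives ΔN-RNMT. This protein is a cytoplasmic form of the cap methyltransferase RNMT that lacks the N-terminal part and is inactive through a change in the site that binds S-adenosylmethionine. The study asked which cytoplasmic mRNAs change when cap methylation in the cytoplasm is blocked. The groups were 5 uninduced and 5 induced libraries of the transgene line, with parental U2OS-TR cells without the transgene as the control for doxycycline itself, in 3 untreated and 3 doxycycline-treated libraries. All cells carry the tetracycline repressor, were plated for 48 h before the treatment and were collected 24 h later. The recorded protocol lists 1 μg/ml doxycycline for every library, whereas the study's methods and the group names give it to the induced and the treated cells only, and the latter was followed.

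Immediate early genes are transcribed within minutes of a stimulus by factors that are already present in the cell, and their products, many of them transcription factors, switch on later genes. Their mRNAs carry signals for fast decay, among them AU-rich elements in the 3′ untranslated region, which recruit proteins of the ZFP36 family and the deadenylase that they bring. The level of such a mRNA therefore follows the balance of its synthesis and its decay closely, and a level alone does not tell the 2 apart. Lifetimes were not measured in these libraries.

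The AU-rich element is built on the pentamer ATTTA, and the stretch of the 3′ untranslated region richest in it is shown for 8 of the 10 mRNAs because such elements are known to be read by the decay machinery. IER2 has no pentamer there, and the MYC sequence is not shown. The pentamer is in capitals, the sequences are the sense strand of GRCh38 in the canonical GENCODE transcript, and each is the 30 bases that held the most pentamers, centred on them. Where several stretches held equally many, as in JUN, JUNB and ATF3, the first after the stop codon is shown.
JUN (chr1:58781336-58781365, minus strand): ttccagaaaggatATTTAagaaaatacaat
JUNB (chr19:12793059-12793088, plus strand): aatatatttgtgtATTTAacagggagggga
FOSL1 (chr11:65892272-65892301, minus strand): gagggcagctgctATTTAttttcctaaaga
EGR1 (chr5:138469063-138469092, plus strand): actgaaaatgtaaATTTAtaaatatattca
IER3 (chr6:30743648-30743677, minus strand): taattaatATTTAtatgtATTTAtgtacgt
ATF3 (chr1:212619764-212619793, plus strand): cctcaactccaggATTTAggccttaacaca
KLF6 (chr10:3778791-3778820, minus strand): gtATTTAcaaatataacacaacaATTTAac
ZFP36L1 (chr14:68788345-68788374, minus strand): cttATTTAacttatcaaaacgtATTTAttg
IER3, KLF6 and ZFP36L1 held 2 pentamers within 30 bases, and the other 5 windows shown held 1. Over the whole 3′ untranslated region, ZFP36L1 held 8 pentamers, MYC, IER3 and KLF6 held 6 each, JUN and ATF3 held 3 each, JUNB held 2, FOSL1 and EGR1 held 1 each, and IER2 held 0. Of the 10 mRNAs, 90% held the pentamer, compared with 74.6% of the 11473 genes tested in the transgene line that have an annotated 3′ untranslated region. The median length of that region was 1221 bases in the 10 mRNAs and 1403 bases in the tested genes, and the pentamer is a description of the sequence and not a measured decay site. The longer nonamer TTATTTATT was present in ZFP36L1 alone among the 10, or 10%, and in 9.78% of the tested genes. The 10 genes differed from other genes more in their build, with a median of 2 exons in the canonical transcript against 9, and 60% of them had 2 exons or fewer against 6.42%.

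Promoter sequences from RefSeq (GRCh38.p14, 250 bases before to 50 after the start) were at hand for 7 of the 10 genes, and for MYC, FOSL1 and IER3 none was used. The CArG box, the binding sequence of serum response factor, which drives many immediate early genes, was found on either strand in 1 of the 7, EGR1, and in 1.29% of 35116 promoters. EGR1 held 2 boxes, which start 105 and 83 bases before the transcription start and are shown in capitals because they are the sequence through which this gene is best known to respond to growth factors.
EGR1 (chr5:138465364-138465393, plus strand): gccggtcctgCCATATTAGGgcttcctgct
EGR1 (chr5:138465386-138465415, plus strand): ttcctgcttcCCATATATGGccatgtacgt
The cyclic AMP response element TGACGTCA was found in 1 of the 7, ZFP36L1, and in 1.85% of all promoters. The AP-1 sequence TGACTCA was found in 0 of the 7 and in 4.95% of all, and the E-box CACGTG, which MYC binds with its partner MAX, in 1 of the 7, KLF6, and in 7.26% of all. A promoter without a match says only that these letters are not in that window.

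The uninduced libraries held between 18991617 and 23251834 gene counts, the induced libraries between 12527183 and 20781875, and the parental libraries between 1473286 and 3214808. RNMT, part of which the transgene carries, was counted at 266 to 458 CPM in induced libraries and at 55.6 to 112 CPM in uninduced libraries, where CPM is the tag count relative to the library total after TMM scaling. The RNMT groups did not overlap, and the log2 fold change was 2.22 (adjusted P = 0.00805, edgeR), and 2.39 without the 2 libraries set aside below. Along the main axis of variation of the other 13028 tested genes, which took 78.9% of the variance, uninduced replicates 1 to 4 lay between −102 and −45.3 and induced replicates 1, 3, 4 and 5 between 57.4 and 71.4. Uninduced replicate 5 lay at 33.9, on the side of the induced libraries, and induced replicate 2 lay at −13.5, on the side of the uninduced ones. RNMT was at 112 CPM in the former, the highest of the uninduced group, and at 360 CPM in the latter, within the induced group. Because these 2 libraries decide several values below, the values of the 10 mRNAs and the counts of the lists in the transgene line are given with all 10 libraries and then with the 4 uninduced and 4 induced libraries that remain, a choice made after the values had been seen. The SE and P values of every fit without these 2 libraries depend on that choice. They describe the libraries that remain and are no independent test. Of the osteosarcoma and bone markers, SPARC, COL1A1, VIM and RUNX2 were counted in every library, whereas SP7, BGLAP, IBSP and COL1A2 were at 0 or had at most 1 count. Summed over their lists, markers of epithelial cells took 5.18 to 13.1 CPM in uninduced and 7.43 to 16.9 CPM in induced libraries, and markers of blood cells 0.111 to 0.532 and 0.597 to 0.761 CPM. VIM and RUNX2 were higher in induced cells by 1.44 and 1.16 on the log2 scale (adjusted P = 0.0182 and 0.0175, edgeR). COL1A1 and SPARC had log2 fold changes of 0 and 0.05 (adjusted P = 0.999 and 0.826, edgeR). Of the nuclear RNAs, NEAT1 had a log2 fold change of −0.44 (adjusted P = 0.041, edgeR). Those of MALAT1 and KCNQ1OT1 were 0.03 and −0.27 (adjusted P = 0.927 and 0.534, edgeR). The part of these differences in the results of the transgene line was not tested.

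With all 10 libraries, 4 of the 10 mRNAs passed the test between induced and uninduced cells, with MYC, ATF3 and KLF6 higher and IER3 lower in induced cells. Genes were tested by quasi-likelihood in edgeR with P values adjusted by Benjamini-Hochberg over 13038 genes, and a gene was called at an adjusted P below 0.05. By the same test 39.8% of all tested genes were called, 20% higher and 19.8% lower, so the share of these mRNAs that was called equals the background and is no result about them as a group. Their median log2 fold change was 0.45, compared with 0.04 over all tested genes. KLF6 was the only 1 of the 10 whose groups did not overlap, compared with 7.3% of all tested genes, 3.08% with the induced group higher. DESeq2's Wald test called 6 of the 10, adding JUNB and EGR1, and 5981 of all genes. With total counts alone in place of TMM, 6 of the 10 were called higher and 1 lower. In that fit 5423 of all genes were called, 74.2% of them higher. With 1 surrogate variable in the fit 0 of the 10 and 1 gene among all were called (edgeR), and the log2 fold changes were 1.4 for MYC, −0.48 for IER3, 0.4 for ATF3 and 0.52 for KLF6 (adjusted P = 0.141, 0.106, 0.294 and 0.106). With uninduced replicate 5 and induced replicate 2 set aside, 6 of the 10 were called, 5 of them higher, when 64.3% of all genes were called, 33.8% higher and 30.5% lower. In the same 8 libraries 8 of the 10 did not overlap, 7 higher and 1 lower in induced cells, when 59.6% of all genes did not, 31.8% higher and 27.8% lower. In bulk RNA, a difference in the cells that hold an mRNA cannot be told apart from a difference in the amount of it per cell.

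**Figure D1:**
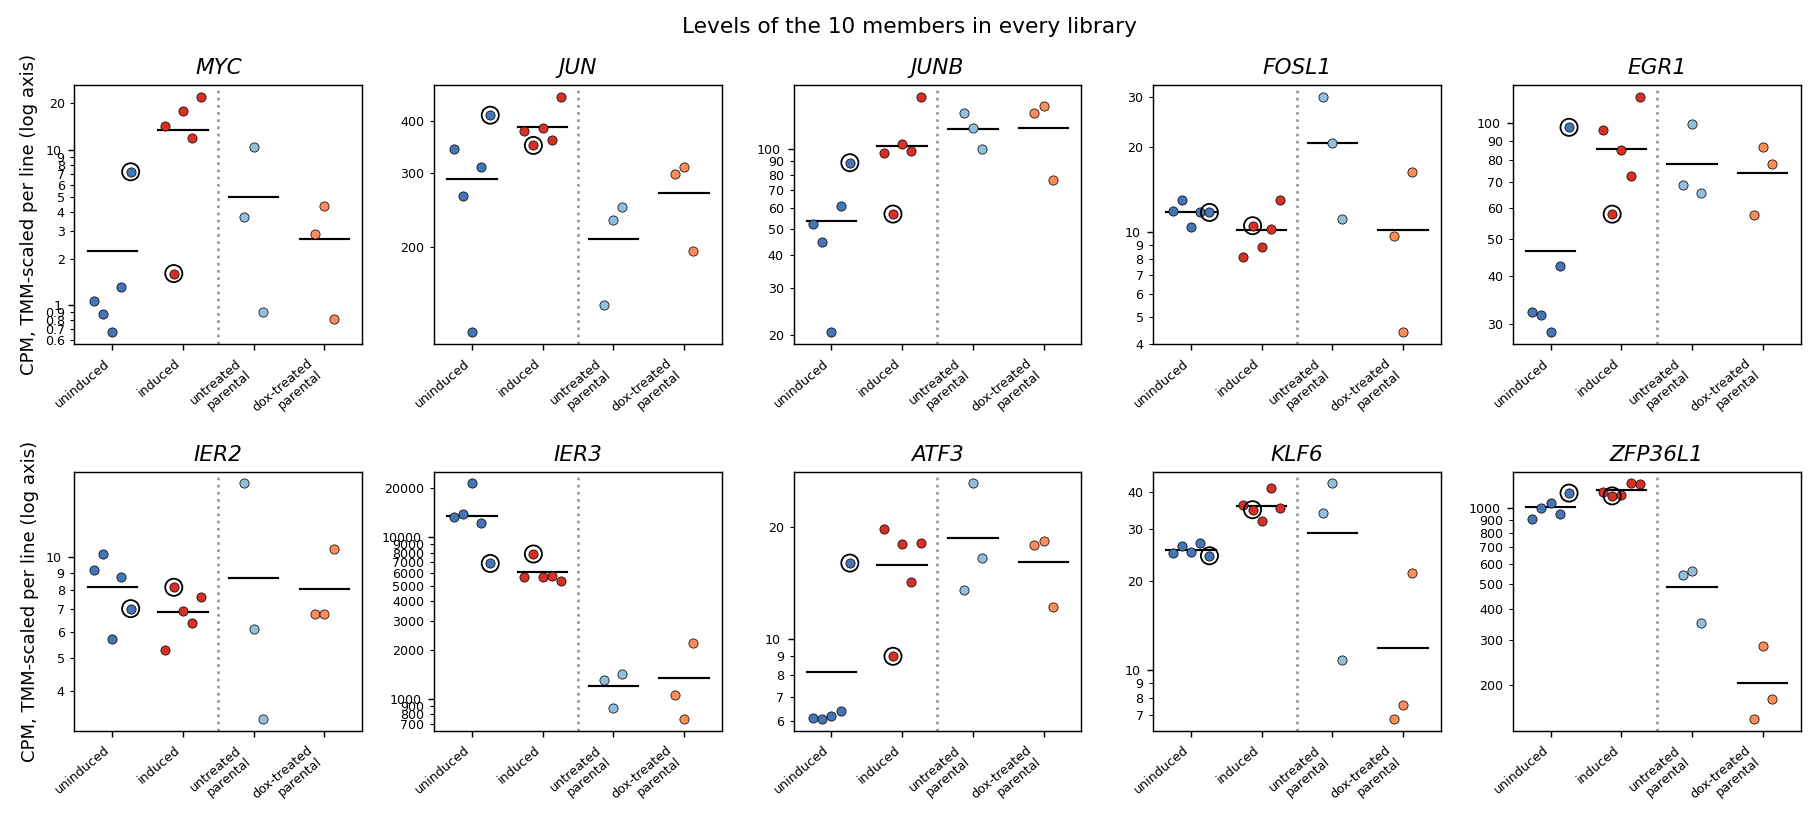
CPM of each of the 10 mRNAs in every library (1 point a library, line at the group mean, log axis, scaled by TMM separately in the transgene line left of the dotted line and in the parental line right of it). Circled points are uninduced replicate 5 and induced replicate 2, which lie apart from their groups in MYC, JUNB, EGR1 and ATF3, and the KLF6 groups of the transgene line do not overlap.

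MYC, on chromosome 8, encodes the transcription factor that pairs with MAX on E-boxes and drives growth and ribosome production. Uninduced replicates 1 to 5 held 1.07, 0.877, 0.667, 1.31 and 7.25 CPM of MYC, and induced replicates 1 to 5 held 14.4, 1.6, 17.8, 11.9 and 22.1 CPM. Induced replicate 2 was close to the 4 low uninduced libraries, and uninduced replicate 5 lay between the groups, so the groups overlapped. These levels rest on 12 to 167 tags per uninduced library and 34 to 373 per induced library. The means were 2.23 ± 2.81 CPM (SD, n = 5) and 13.6 ± 7.71 CPM (SD, n = 5). MYC rose by 2.57 on the log2 scale (SE 0.75, adjusted P = 0.0234, edgeR), which was the largest change among the 10. The call depends on which libraries are used, since leaving out uninduced replicate 1, 2 or 4 or induced replicate 1, 3, 4 or 5 gave adjusted P values between 0.0511 and 0.0561 (edgeR) and leaving out uninduced replicate 5 gave a log2 fold change of 3.76. With both libraries set aside, the uninduced range was 0.667 to 1.31 CPM, the induced range 11.9 to 22.1 CPM and the log2 fold change 4.05 (SE 0.27, adjusted P = 3.52e-07, edgeR). This SE and P value depend on that removal, after which 64.3% of all genes were called. CASC11, the gene on the opposite strand at the MYC locus, held at most 13 tags in any library.

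JUN, JUNB, FOSL1 and ATF3 belong to or pair with the AP-1 family, leucine-zipper transcription factors that bind DNA as dimers. ATF3, a stress-induced member of this group, held 6.14, 6.08, 6.22, 6.39 and 16 CPM in uninduced replicates 1 to 5. In induced replicates 1 to 5 it held 19.7, 8.98, 18, 14.2 and 18.1 CPM. The first 4 uninduced libraries had an SD of 0.133 CPM (n = 4), whereas replicate 5 lay within the range of the induced libraries. ATF3 rose by 0.95 on the log2 scale (SE 0.32, adjusted P = 0.0359, edgeR), from 8.17 ± 4.38 to 15.8 ± 4.31 CPM (SD, n = 5 each). Leaving out any 1 of the 10 libraries other than uninduced replicate 5 and induced replicate 2 gave adjusted P values between 0.064 and 0.0843 (edgeR). Without these 2, the log2 fold change was 1.49 (SE 0.15, adjusted P = 9.01e-06, edgeR).

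JUNB, an AP-1 subunit that can oppose JUN, held 52.2, 44.8, 20.5, 61.3 and 88.8 CPM in uninduced replicates 1 to 5. It held 96.5, 57, 104, 98 and 157 CPM in induced replicates 1 to 5. Apart from uninduced replicate 5 and induced replicate 2, every induced library held more JUNB than every uninduced library. The log2 fold change over all libraries was 0.94 (SE 0.35, 95% interval 0.25 to 1.62, adjusted P = 0.0508, edgeR), just outside the threshold. JUNB passed with DESeq2's Wald test (adjusted P = 0.0284) and, in edgeR, with total counts alone (0.0364), with the replicate number as a block (0.0273) and with offsets for GC content (0.0413). It was 1.34 (SE 0.3, adjusted P = 0.0019, edgeR) with the 2 libraries set aside, and leaving out uninduced replicate 5 or induced replicate 2 alone gave adjusted P values of 0.00806 and 0.0246 (edgeR). HOOK2 overlaps JUNB on the opposite strand and moved the other way, with a log2 fold change of −0.69 (adjusted P = 0.0177, edgeR).

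JUN, the founding AP-1 subunit, held 342, 265, 125, 310 and 412 CPM in uninduced replicates 1 to 5 and 378, 349, 385, 359 and 456 CPM in induced replicates 1 to 5. The induced libraries lay within a narrow range, and the uninduced ones spread from well below it to inside it. Its log2 fold change of 0.41 (SE 0.26, 95% interval −0.1 to 0.91, adjusted P = 0.213, edgeR) did not pass the test. It was 0.59 (adjusted P = 0.0684, edgeR) with the 2 libraries set aside. FOSL1, which encodes the AP-1 partner FRA1, was the steadiest of the family at 10.4 to 12.9 CPM in uninduced libraries and 8.13 to 12.9 CPM in induced libraries. The FOSL1 log2 fold change was −0.21 (SE 0.16, 95% interval −0.51 to 0.1, adjusted P = 0.287, edgeR), and it was −0.23 with the 2 libraries set aside. It turned to 0.03 with total counts alone and to 0.12 with offsets for GC content. FOSL1P1, its pseudogene, held 0 counts.

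EGR1 and KLF6 encode zinc finger transcription factors, the former induced by growth factors through serum response factor and the latter known as a growth suppressor. EGR1 held 32.3, 31.7, 28.5, 42.5 and 97.4 CPM in uninduced replicates 1 to 5 and 95.7, 57.9, 85.1, 72.8 and 117 CPM in induced replicates 1 to 5. Uninduced replicate 5 was higher than all induced libraries but replicate 5, and the other 4 uninduced libraries lay below all 5 induced ones. The log2 fold change was 0.88 (SE 0.34, 95% interval 0.21 to 1.55, adjusted P = 0.0568, edgeR), which did not pass. EGR1 did pass with DESeq2's Wald test (adjusted P = 0.0353) and, in edgeR, with total counts alone (0.0398) and with the replicate number as a block (0.0174). With the 2 libraries set aside it was 1.45 (SE 0.19, adjusted P = 4.9e-05, edgeR), and leaving out uninduced replicate 5 or induced replicate 2 alone gave adjusted P values of 0.000513 and 0.0384 (edgeR).

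KLF6 did not follow the 2 libraries that stand apart. It held 24.9, 26.2, 25.1, 26.9 and 24.3 CPM in uninduced replicates 1 to 5 and 36.2, 34.8, 31.9, 41.2 and 35.2 CPM in induced replicates 1 to 5. Uninduced replicate 5 was the lowest of all, and every induced library was higher than every uninduced library. The means of 25.5 ± 1.07 and 35.8 ± 3.37 CPM (SD, n = 5 each) gave a log2 fold change of 0.49 (SE 0.13, adjusted P = 0.018, edgeR), a 1.41-fold rise that stayed at 0.48 with the 2 libraries set aside. Leaving out induced replicate 4 gave an adjusted P of 0.0501 (edgeR). With offsets for GC content the log2 fold change of KLF6 was 0.3 (adjusted P = 0.0779, edgeR), so this call depends on whether GC content is modelled.

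IER3, a small protein that modulates ERK signalling and cell survival, went the other way. It held 13336, 13842, 21445, 12269 and 6855 CPM in uninduced replicates 1 to 5 and 5624, 7848, 5662, 5740 and 5359 CPM in induced replicates 1 to 5. Uninduced replicate 5 was below induced replicate 2 and above the other 4 induced libraries, so the overlap came from the same 2 libraries as in MYC. IER3 fell by 1.16 on the log2 scale (SE 0.26, adjusted P = 0.0175, edgeR), from 13550 ± 5218 to 6047 ± 1017 CPM (SD, n = 5 each). It was called with each library left out in turn, with log2 fold changes from −1.34 to −0.96, and with the 2 libraries set aside the value was −1.44 (adjusted P = 4.31e-05, edgeR). The 10 mRNAs took 0.859% to 1.92% of all gene counts in uninduced libraries and 0.794% to 0.971% in induced libraries. Most of these counts were IER3, with 158012 to 385864 tags per uninduced and 75417 to 166855 per induced library. This share therefore mainly follows IER3 and does not describe the 10 mRNAs as a group. IER2, a nuclear protein of unrelated sequence, held 5.72 to 10.2 CPM in uninduced libraries and 5.29 to 8.14 CPM in induced libraries. The IER2 log2 fold change of −0.25 (SE 0.19, 95% interval −0.63 to 0.13, adjusted P = 0.303, edgeR) did not pass. It was −0.38 (adjusted P = 0.13, edgeR) with the 2 libraries set aside and turned to 0.19 with offsets for GC content.

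ZFP36L1 encodes a protein that binds AU-rich elements and brings the CCR4-NOT deadenylase to them, so it acts on mRNAs of the kind described here. It held 909, 998, 1045, 950 and 1146 CPM in uninduced replicates 1 to 5 and 1157, 1117, 1129, 1251 and 1242 CPM in induced replicates 1 to 5. Uninduced replicate 5 lay among the induced libraries, and the other 4 lay below all of them. The log2 fold change was 0.22 (SE 0.13, 95% interval −0.03 to 0.48, adjusted P = 0.175, edgeR), and it was 0.29 (adjusted P = 0.0706, edgeR) with the 2 libraries set aside. With total counts alone it was 0.46 (adjusted P = 0.0246, edgeR), but that scaling moved the median of all tested genes from 0.04 to 0.28 and the share of called genes that were higher from 50.2% to 74.2%.

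**Figure D2:**
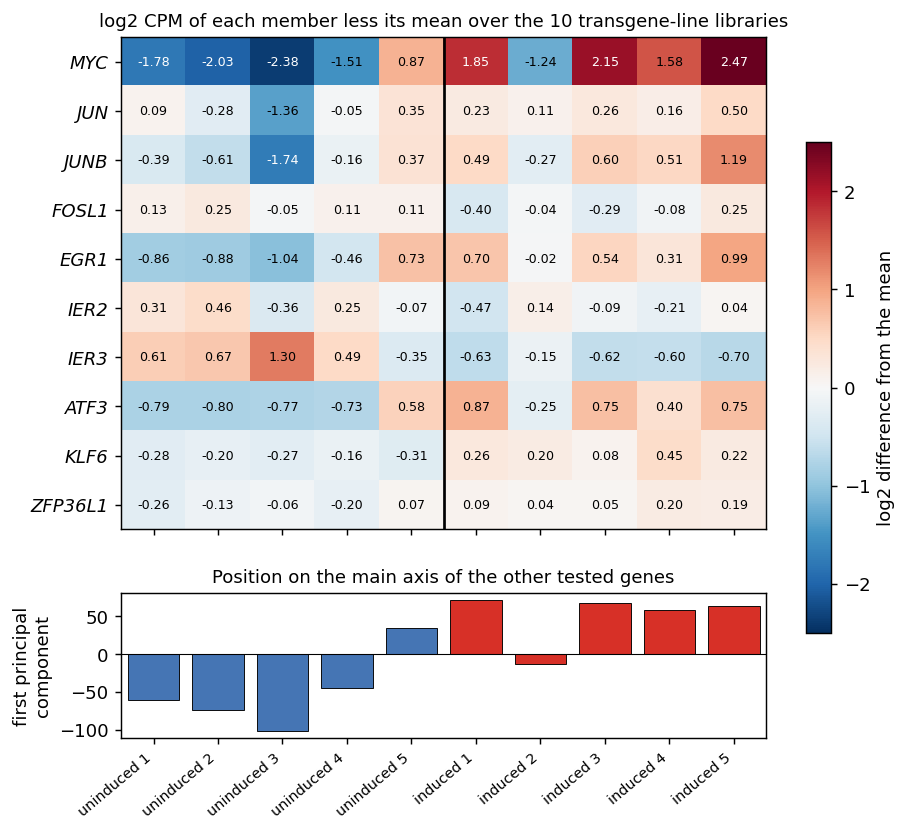
Top, log2 CPM of each mRNA in the 10 libraries of the transgene line less its own mean, in log2 units. Bottom, the position of the same libraries on the first principal component of the other 13028 tested genes, where uninduced replicate 5 (33.9) and induced replicate 2 (−13.5) have crossed zero. MYC, JUNB, EGR1 and ATF3 have the sign of the bar in both of these libraries, IER3 is below its mean in both, and KLF6 has the sign of the rest of the group that each label gives.

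Across the 10 libraries the mRNAs differed in how far they moved. MYC spanned 4.85 log2 units from its lowest to its highest library, JUNB 2.93, EGR1 2.04, IER3 2, JUN 1.87 and ATF3 1.68, whereas IER2 spanned 0.93, KLF6 0.76, FOSL1 0.66 and ZFP36L1 0.46. The likeness of 2 patterns was measured as the root mean square difference of their log2 CPM after centring each gene on its mean over the 10 libraries. The closest pairs were KLF6 with ZFP36L1 at 0.18, FOSL1 with IER2 at 0.19 and EGR1 with ATF3 at 0.19, and the farthest was MYC with IER3 at 2.49. The libraries share depth and the main axis, so a small distance also arises between genes that only move little. Among 13037 other tested genes, those nearest to MYC were TFB2M (0.2), MRPL32 (0.21), TTYH3 (0.25), DNAAF2 (0.27) and MAP2K1 (0.29), compared with a median distance of 1.86. Each of these 5 had a log2 fold change between 2.58 and 2.65, close to that of MYC. This closeness follows from picking them by distance over the same 10 libraries. Those nearest to JUN were ZWINT, TTI2, SLC11A2 and DNAL4 (0.11 each) and MAX (0.12), compared with a median distance of 0.65. MAX encodes the partner of MYC, and its log2 fold change of 0.28 (adjusted P = 0.411, edgeR) did not pass the test.

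Doxycycline was given to parental cells without the transgene to learn what the drug does alone. By quasi-likelihood in edgeR, 0 of the 8 mRNAs that could be tested were called, as were 0 of the 9124 genes tested (0%), and at an unadjusted P below 0.05 there were 1 of the 8 and 267 of all genes (2.93%). DESeq2's Wald test also called 0 of the 8, and 1 gene among all. On counts simulated from the means, depths and common spread of these libraries, edgeR called 2.06% of 2-fold and 43% of 4-fold changes. A missing call in this line is therefore no sign that an mRNA did not change. MYC, with 1 to 17 tags per library, and IER2, with 10 to 27, were below the minimum of a base mean of 20. These libraries were sequenced at another facility, on another instrument and with longer reads than those of the transgene line, and they are shallower.

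MYC in untreated parental replicates 1 to 3 was 3.69, 10.4 and 0.898 CPM, from 6, 17 and 3 tags, and in treated replicates 1 to 3 it was 2.86, 4.39 and 0.815 CPM, from 8, 11 and 1 tags. The groups overlapped throughout, and at this depth only a large change of MYC could have been seen. JUN went from 145 to 249 CPM in untreated libraries to 196 to 310 CPM in treated ones, with a log2 fold change of 0.36 (SE 0.4, 95% interval −0.42 to 1.14, adjusted P = 0.997, edgeR). The log2 fold change of ATF3 was −0.2 (95% interval −1.12 to 0.72), that of EGR1 −0.07 (−0.82 to 0.68), that of JUNB 0.01 (−0.75 to 0.78) and that of IER3 0.15 (−0.82 to 1.13), all with adjusted P values of 0.997 or 0.998 (edgeR). The signs of JUNB, EGR1, IER3 and ATF3 turned when single libraries were left out.

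Of the 8 tested mRNAs, only ZFP36L1 had parental groups that did not overlap. Untreated libraries held 350 to 565 CPM of it and treated libraries 146 to 285 CPM, so that all 3 treated libraries were lower. Such a separation was found for 9.52% of all tested genes, 4.66% lower with doxycycline, so 1 of the 8 is near the background and no result about them. The log2 fold change was −1.26 (SE 0.42, 95% interval −2.09 to −0.43, adjusted P = 0.997, edgeR), and it is the 1 of the 8 at an unadjusted P below 0.05. KLF6 and FOSL1 had values of similar size and wider error. KLF6 went from 10.8 to 42.7 CPM in untreated libraries to 6.79 to 21.2 CPM in treated ones, a log2 fold change of −1.33 (SE 0.64, adjusted P = 0.997, edgeR). For FOSL1 the value was −1.05 (SE 0.6, adjusted P = 0.997, edgeR). KLF6 rests on 19 to 70 tags per parental library.

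**Figure D3:**
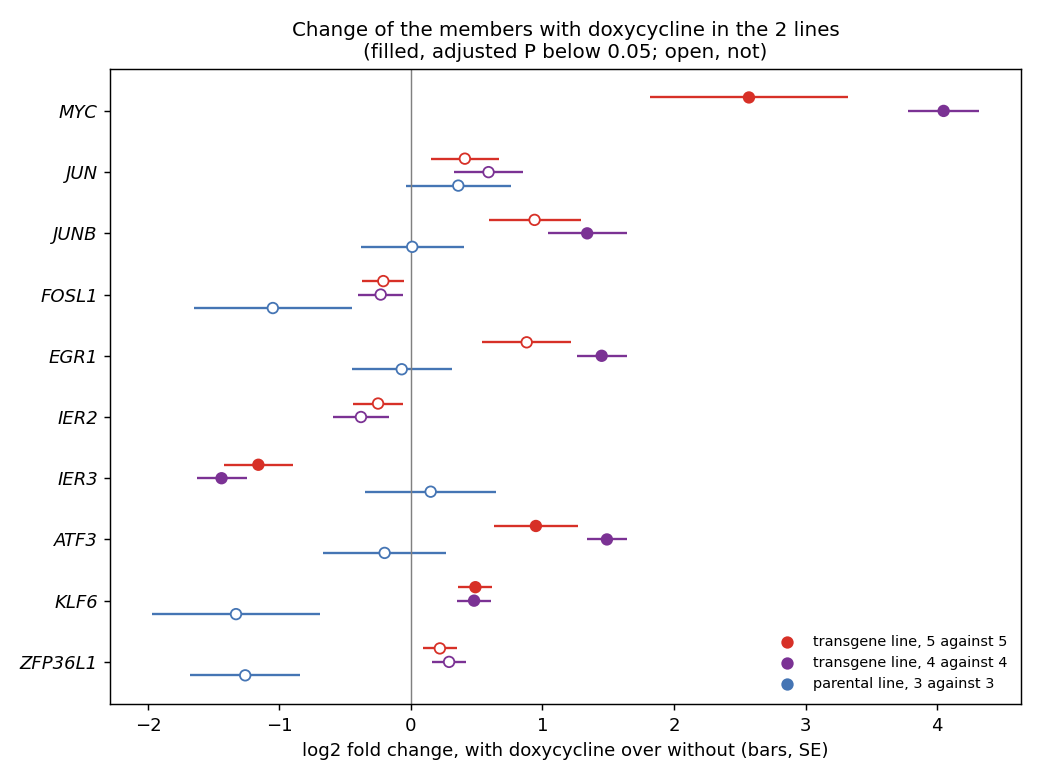
Log2 fold change with doxycycline over without for each mRNA (points, with bars of 1 SE) in the transgene line with all 10 libraries, in the same line without uninduced replicate 5 and induced replicate 2, and in the parental line. Filled points passed an adjusted P of 0.05, and MYC and IER2 have no parental point because too few tags were counted. The transgene values of MYC move from 2.57 to 4.05, while all parental bars are wider and none of their points is filled.

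The test of whether the response to doxycycline differed between the lines called 0 of the 10 mRNAs and 2.98% of 12265 genes (edgeR), and 4 of the 10 had an unadjusted P below 0.05, as did 26.1% of all genes. DESeq2's Wald test called 3 of the 10, IER3, KLF6 and ZFP36L1, and 1478 of the 12265 genes. On counts simulated in the same way for this comparison, edgeR called 0% of 2-fold and 35.5% of 4-fold differences, so a missing call says little. The difference, as the log2 fold change in the transgene line minus that in the parental line, was 3.06 for MYC (SE 1.34, adjusted P = 0.161, edgeR) and −1.58 for IER3 (SE 0.56, adjusted P = 0.097, edgeR). For ZFP36L1 it was 1.26 (SE 0.35, adjusted P = 0.0531, edgeR) and for KLF6 1.61 (SE 0.55, adjusted P = 0.0899, edgeR). With total counts alone 2 of the 10 were called, KLF6 and ZFP36L1, and 506 of the 12265 genes. That scaling moved the median difference over all genes from −0.09 to 0.49. It also moved the share of called genes with a higher value in the transgene line from 26% to 91.3%. With uninduced replicate 5 and induced replicate 2 set aside, 5 of the 10 were called (MYC, EGR1, IER3, ATF3 and ZFP36L1), when 25.3% of all genes were. The call of ZFP36L1 was also made without uninduced replicate 5 (adjusted P = 0.0267, edgeR), induced replicate 2 (0.043), untreated parental replicate 3 (0.0253) or treated parental replicate 2 (0.0197). Without uninduced replicate 5 alone MYC had a difference of 4.12 (adjusted P = 0.0217, edgeR), EGR1 of 1.15 (0.0415), ATF3 of 1.27 (0.0413) and IER3 of −1.76 (0.0263). IER3 was also called without treated parental replicate 2 (0.0412) and KLF6 without untreated parental replicate 3 (0.0232). Among all genes, 2290 were called without uninduced replicate 5 and 1170 without induced replicate 2. Without untreated parental replicate 3 there were 686 such genes, and without treated parental replicate 2 there were 1647. The lines differ in clone and in sequencing, and these cannot be told apart from the transgene.

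Scaled together over all 16 libraries, MYC was highest in induced cells at 13.6 ± 7.75 CPM (SD, n = 5), followed by untreated parental cells at 4.31 ± 4.22 CPM (SD, n = 3), treated parental cells at 2.44 ± 1.64 CPM (SD, n = 3) and uninduced cells at 2.36 ± 2.8 CPM (SD, n = 5). The ranges of all neighbours in this order overlapped. ATF3 followed another order, with untreated parental cells at 16.1 ± 5.8 CPM (SD, n = 3), induced cells at 16 ± 4.03 CPM (SD, n = 5) and treated parental cells at 14.7 ± 2.77 CPM (SD, n = 3) near each other and uninduced cells lowest at 8.93 ± 4.08 CPM (SD, n = 5), although their range reached into the others through replicate 5. ZFP36L1 was at 1126 ± 74.4 CPM in uninduced cells and 1198 ± 68.6 CPM in induced cells (SD, n = 5 each), and these ranges overlapped. In untreated parental cells it was at 419 ± 104 CPM and in treated ones at 186 ± 69.3 CPM (SD, n = 3 each), below the transgene line and not overlapping with each other. KLF6 was at 36.4 ± 3.64 CPM in induced and 28.5 ± 2.33 CPM in uninduced cells (SD, n = 5 each), which did not overlap, and at 25.1 ± 14.3 and 11 ± 7.92 CPM in untreated and treated parental cells (SD, n = 3 each). IER3 was at 15356 ± 6423 CPM in uninduced cells and 6169 ± 1253 CPM in induced cells (SD, n = 5 each), and at 1237 ± 755 CPM in treated and 1031 ± 244 CPM in untreated parental cells (SD, n = 3 each). JUN and EGR1 were highest in induced cells, JUNB in treated parental cells, FOSL1 in untreated parental cells and IER2 in uninduced cells, and in these 5 mRNAs the ranges of all neighbouring groups overlapped.

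The levels in parental cells need a caution about strand, which is seen most clearly at IER3. IER3 lies on the minus strand at chr6:30743199-30744548, and IER3-AS1 is annotated across it on the plus strand. In the 3 untreated parental libraries IER3 held 2120, 1430 and 4752 tags and IER3-AS1 held 2146, 1456 and 4776. In the 3 treated ones IER3 held 2961, 1866 and 2705 tags and IER3-AS1 held 2954, 1882 and 2690, so the ratio was between 0.994 and 1.02 in all 6. In the transgene line IER3 held 75417 to 385864 tags and IER3-AS1 held 1 to 13. Genes with antisense names (ending in AS and a number) took 1.05% to 1.2% of gene counts in parental libraries and 0.235% to 0.284% in the transgene line. For each gene count, 1.11 to 1.5 tags fell outside genes in parental libraries and 0.0744 to 0.106 in the transgene line. An unnamed gene on the opposite strand at IER2 held 0 counts in the transgene line and up to 12 in a parental library. Whether the counting used strand is not given in the sources used here. The part of this in the parental values of IER3 and the other mRNAs, and in the difference between lines, was not tested.

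**Figure D4:**
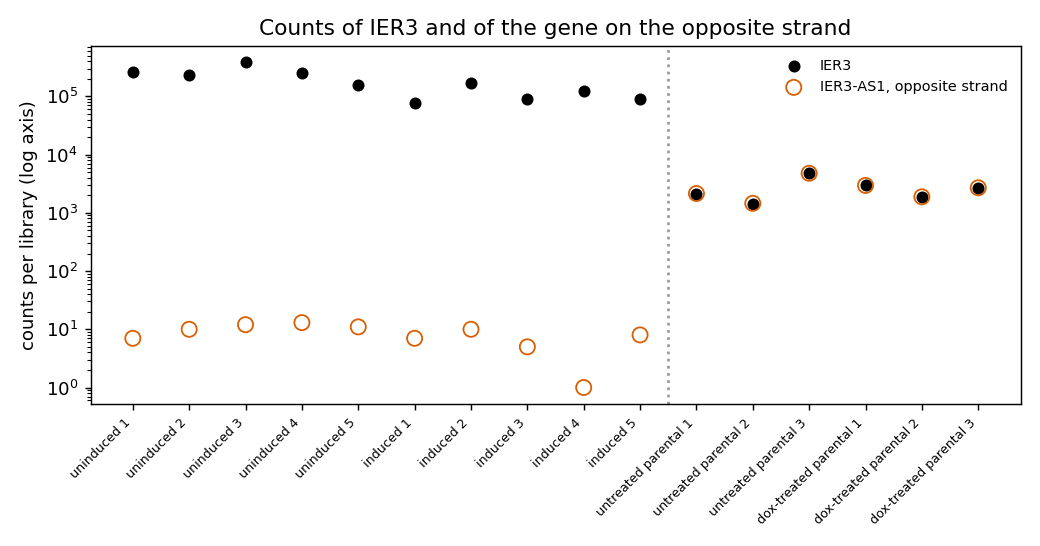
Tags counted on IER3 (filled) and on IER3-AS1 on the opposite strand (open) in each of the 16 libraries, on a log axis. The 2 counts coincide in the 6 parental libraries right of the dotted line and are separated by several orders of magnitude in the transgene line left of it.

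Other genes of the same circuits were counted in the transgene line from lists of known members, beside 20% of all genes called higher and 19.8% called lower. These lists too were drawn up with earlier results of these data known. Of 57 other immediate early genes, 46 passed the minimum, and 19 of them were higher and 1 lower, with a median log2 fold change of 0.89 against 0.04 over all genes. Among them LIF, a cytokine of the interleukin-6 family, rose by 3.77 (SE 1.08, adjusted P = 0.0226, edgeR), and the zinc finger factors KLF2 and KLF10 rose by 2.99 and 2.87 on the log2 scale (adjusted P = 0.0175 and 0.0177, edgeR). Without uninduced replicate 5 alone the values were 6 for LIF, 4.09 for KLF2 and 3.9 for KLF10, and without both libraries 6.32, 4.38 and 4.19. LIF held 0.117 to 4.86 CPM in uninduced and 0.329 to 25.4 CPM in induced libraries. KLF2 held 0.468 to 4.12 and 1.69 to 21.6 CPM, and KLF10 1.75 to 17 and 5.27 to 56.7 CPM. In each of them the groups overlapped, and LIF and KLF2 had too few tags to be tested in the parental line. BTG1, an antiproliferative partner of the CCR4-NOT deadenylase, was the 1 that fell, by 0.78 (adjusted P = 0.0249, edgeR). FOS, FOSB, EGR2, EGR3, NR4A3, KLF4, DUSP4, CXCL1, CXCL2, IL6 and SPRY4 were below the minimum, among them the transcripts best known for an acute response. With the 2 libraries set aside, 32 of 46 were higher and 2 lower, beside 33.8% and 30.5% of all genes. In the parental line 0 of 33 tested genes of this list were called, and 1 had an unadjusted P below 0.05.

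Of the MYC network, the proteins that pair with MAX or its relatives and their cofactors, 6 of 16 were higher and 2 lower, with a median log2 fold change of 0.19. MYCN, a paralogue of MYC, rose by 1.54 (adjusted P = 0.0191, edgeR) and held no more than 2.46 CPM in any library of the transgene line. TRRAP, a cofactor through which MYC recruits histone acetylation, rose by 1.51 (adjusted P = 0.0175, edgeR), and MXD1, a repressor that competes for MAX, rose by 1.14 (adjusted P = 0.0352, edgeR). MLXIP and MXD4 fell by 0.65 and 0.59 (adjusted P = 0.033 and 0.0471, edgeR). Of the genes that MYC is known to activate, 1 of 23 tested was higher and 6 were lower, with a median of −0.08. TFRC, the transferrin receptor, rose by 0.52 (adjusted P = 0.0457, edgeR). SRM, which makes spermidine, FBL, the methyltransferase of box C/D snoRNPs, and CAD, which starts pyrimidine synthesis, fell by 1.13, 1.09 and 0.86 (adjusted P = 0.0175, 0.0175 and 0.0231, edgeR). With the 2 libraries set aside, 6 of 16 genes of the MYC network were higher and 3 lower, beside 33.8% and 30.5% of all genes. Of the 23 MYC targets 3 were then higher and 8 lower, beside the same shares of all genes. SRM and FBL are also on the study's own list of downregulated mRNAs with 5′ terminal oligopyrimidine sequences. The study took that class from published mRNAs recovered with the protein LARP1 and listed those lower in these libraries. The list is therefore not independent evidence of their direction.

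Of the proteins that bind AU-rich elements, 7 of 13 tested were higher and 1 lower, with a median log2 fold change of 0.51. ZFP36 (tristetraprolin) rose by 2.78 (SE 0.75, adjusted P = 0.0195, edgeR) and ZFP36L2 by 1.81 (SE 0.44, adjusted P = 0.0177, edgeR), both destabilising relatives of ZFP36L1, and both are also among the other immediate early genes. ZFP36 was counted at no more than 5.22 CPM in any library of the transgene line. ELAVL1 (HuR), which stabilises such mRNAs, rose by 0.88 (adjusted P = 0.0335, edgeR), and IGF2BP2, which also stabilises mRNAs, fell by 0.7 (adjusted P = 0.0247, edgeR). With the 2 libraries set aside 7 were higher and 1 lower, beside 33.8% and 30.5% of all genes. With offsets for GC content 3 genes of this list were called in place of 8. Calls among all genes fell as well, from 5183 of 13038 to 3449 of 12922, so this is no result about the list.

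Of the signalling genes upstream of immediate early transcription, 9 of 25 were higher and 4 lower, with a median of 0.31. With the 2 libraries set aside 12 were higher and 4 lower, beside 33.8% and 30.5% of all genes. In the ERK cascade the kinase MAP2K1 rose by 2.65 (adjusted P = 0.0187, edgeR) and the GTPase NRAS by 2.56 (adjusted P = 0.0175, edgeR). Without uninduced replicate 5 the value of MAP2K1 was 3.59. MAP2K2, MRTFA and MAPK3 fell by 1.02, 0.87 and 0.76 (adjusted P = 0.0177, 0.0186 and 0.0199, edgeR), so that the paralogues MAP2K1 and MAP2K2 went in opposite directions. MAP2K2 is also on the study's list of downregulated mRNAs with 5′ terminal oligopyrimidine sequences. With total counts alone the calls higher and lower were 24 and 0 for the other immediate early genes, 7 and 0 for the MYC network, 3 and 4 for the MYC targets, 8 and 0 for the AU-rich element binding genes and 13 and 3 for the signalling genes, so BTG1, MLXIP, MXD4 and IGF2BP2 were not called lower under that scaling. Of all 13038 genes, 5423 were called with total counts alone, 74.2% of them higher. In all 5 lists the counts moved with single libraries. Of the other immediate early genes, 32 were called without uninduced replicate 5, 23 without induced replicate 2 and 6 to 14 without any other library. Among all genes these fits called 7604, 6353 and 1869 to 3755. The calls of KLF2, KLF10, TRRAP, SRM, FBL, ZFP36L2, MAP2K1, NRAS, MAP2K2 and MRTFA were made with each of the 10 libraries left out in turn. LIF, BTG1, MYCN, MXD1, MLXIP, MXD4, TFRC, CAD, ZFP36, ELAVL1, IGF2BP2 and MAPK3 lost their call without induced replicate 1, most of them also without other libraries.

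**Figure D5:**
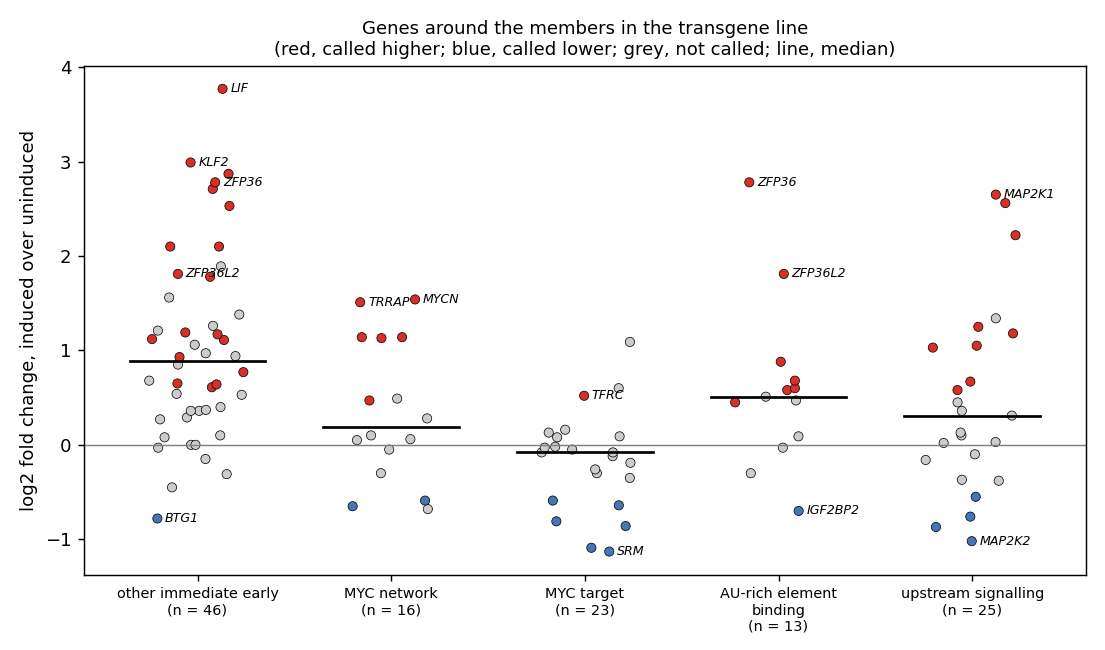
Log2 fold change of induced over uninduced cells, all 10 libraries, for the tested genes of 5 lists around the 10 mRNAs (1 point a gene, line at the median, horizontal spread only for legibility). Red and blue points were called higher and lower at an adjusted P below 0.05. The other immediate early genes have a median of 0.89 with 19 red points and 1 blue point, and the MYC target genes a median of −0.08 with 1 red and 6 blue points.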

How the data were processed

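Cytoplasmic polyadenylated RNA of 16 libraries was counted with the QuantSeq REV 3′ tag method. The authors deposited raw counts of tags per Ensembl gene for each library, made with the Lexogen QuantSeq 2.2.3 pipeline for GRCh38 and not normalized. Which aligner and annotation release the pipeline used, whether it counted by strand and how it treated duplicates is not given in the sources used here. Each tag marks the 3′ end of a molecule, and levels were not compared between genes.

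Names, coordinates and 3′ untranslated regions came from GENCODE release 44, which named 56104 of 60107 genes. Counts were analysed with edgeR 4.0.16 in R 4.3.3: genes with a base mean above 20 (DESeq2 size factors) were kept, libraries were scaled by TMM, and groups were compared by the quasi-likelihood test with Benjamini-Hochberg adjustment, separately in each line and in a joint fit with an interaction term for the difference between lines. The SE is the log2 fold change divided by the square root of the F statistic, and intervals are 95% normal intervals from it. CPM are TMM-scaled, and centred log2 values used a prior count of 2. DESeq2 1.42.0 (which the authors used), sva 3.50.0 and Python 3.11.15 served for alternatives and sequences, and the fits were tested on simulated data. Alternatives were other scalings and filters, DESeq2's Wald test, a 1.5-fold limit, GC-content offsets from a lowess of span 0.5, a block for the replicate number, 1 surrogate variable and each library left out.

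The 10 mRNAs and the gene lists were chosen with earlier results of these data known. Named genes were the 10 mRNAs, RNMT, up to 3 called genes of each list with the largest rise and up to 3 with the largest fall, and the 5 genes nearest to MYC and to JUN, and HOOK2, CASC11 and IER3-AS1 as neighbours. A gene that this rule names in the signalling list is not reported here. No library was a duplicate of another, since all pairs within groups differed by more than sampling noise (lowest chi-square per degree of freedom 4.55). The study calls the libraries of the transgene line biological replicates.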

Additional observations from a re-analysis of the deposited data

Results flagged for a closer look

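In 4 of 22 groups of 5 libraries, counting the 10 mRNAs and RNMT in the uninduced and the induced group, 1 library lay far from the other 4 by Dixon's gap test, which flags about 1 in 20 groups by chance. These were MYC at 7.25 CPM, EGR1 at 97.4 CPM and ATF3 at 16 CPM in uninduced replicate 5 as the highest of their group, and IER3 at 7848 CPM in induced replicate 2 as the highest of its group. The same 2 libraries lay apart on the main axis of the other genes, and the part of this in the 4 values was not tested.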

How the results depend on the processing

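The number of the 10 mRNAs called in the transgene line was 4, and it was 7 with total counts alone, 6 with DESeq2's Wald test with or without a beta prior, 0 with 1 surrogate variable, when 1 gene was called among all, and 1 to 6 with each library left out. For the difference between lines it was 0, and 2 with total counts alone, 3 with DESeq2's Wald test, 5 without uninduced replicate 5 and induced replicate 2, and 0 to 5 with each library left out. Of all genes, 365 were called in the main fit, 506 with total counts alone, 1478 with DESeq2's Wald test and 3040 without the 2 libraries. With 1 surrogate variable 0 genes of each of the 5 lists were called. Without the 2 libraries 34 other immediate early genes and 11 MYC target genes were called, beside 64.3% of all genes. AU-rich element binding genes numbered 3 with GC offsets and 4 with GC offsets and the replicate block, when 3449 and 4024 of all genes were called. With each library left out, 6 to 32 other immediate early, 2 to 9 MYC network, 2 to 10 MYC target, 2 to 8 AU-rich element binding and 9 to 15 upstream signalling genes were called. The log2 fold changes that turned sign in the transgene line, none of them past the threshold, were JUN (−0.08 with 1 surrogate variable), FOSL1 (0.03 with total counts alone, 0.12 with GC offsets, 0.12 with GC offsets and the block) and IER2 (0.19 with GC offsets, 0.21 with GC offsets and the block). In the parental line they were JUNB (−0.1 with total counts alone, −0.03 with the replicate block, −0.11 to 0.21 with each library left out), EGR1 (−0.15 to 0.22), IER3 (−0.05 with total counts alone, −0.46 to 0.51) and ATF3 (−0.31 to 0.18). For the difference between lines they were JUN (0.38 with total counts alone, −0.35 to 0.2) and IER2 (0.21, −1.1 to 0.19). KLF6 was also lost without the filter on low counts (adjusted P = 0.0507, edgeR). Over all genes, 5183 were called in the transgene line, 3449 with GC offsets, 8329 without the 2 libraries and 1869 to 7604 with each library left out. The causes were not tested. Replicate numbers did not pair the libraries, with correlations of same-numbered deviations from −0.381 to 0.651 in the transgene line and 3 of 10 libraries closest to their own number. The replicate block called 6 of the 10 mRNAs, adding JUNB and EGR1, and 5188 genes in place of 5183. DESeq2 with a beta prior was not run for the difference between lines. Depth limits MYC and IER2 in the parental line.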
